A study of Rattus norvegicus with 12 samples.

Results

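The genes described here build cholesterol, fatty acids and triglycerides in the liver, or control those pathways. A list of 41 such genes was set against the probe sets annotated to exactly 1 gene, and 38 of the 41 were found, with 55 probe sets, among 10411 named genes and 15866 probe sets in all. Hmgcs1, Stard4 and Elovl2 had no such probe set and were not analysed here. The measured genes were 17 enzymes of cholesterol synthesis, 4 genes of sterol sensing, and 17 genes of fatty acid and triglyceride synthesis. RNA of whole liver came from 12 male Brown Norway rats of 150 to 170 g, an inbred strain, given chow and water in the week before the experiment, and each rat had its own Affymetrix array. Whether they were fed up to the dose, and the hour of dosing, are not stated in the labels. The 4 vehicle rats received water and the 8 treated rats received D-penicillamine, a thiol amino acid that binds copper, once by oral gavage, 150 mg/kg in a volume of 1 mL. The livers were taken 6 h after dosing. The series' title concerns idiosyncratic drug reactions, those seen in some individuals only, so values are given for single rats as well as for the groups.

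Cholesterol is made from acetyl-CoA through mevalonate, farnesyl diphosphate, squalene and lanosterol. Its enzymes are transcribed under the control of SREBP proteins, which the escort protein Scap carries out of the endoplasmic reticulum when sterols are low and which Insig proteins hold back when sterols are high. Fatty acids are made from the same acetyl-CoA by Acly, Acaca and Fasn, lengthened by Elovl enzymes and desaturated by Scd and Fads enzymes. In the liver this second pathway follows feeding, through insulin, the sterol receptor LXR and the Srebf1 gene, and through the glucose-responsive factor encoded by Mlxipl.

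The promoters of 6 of the genes are shown, chosen on the probe set with the highest mean for each gene. On these probe sets Fads1, Srebf1, Elovl5 and Fads2 had the lowest p-values. Cyp51 and Fdps had the most negative differences among the cholesterol enzymes. Each window runs from 250 bases before to 50 bases after the start of the gene, 5′ to 3′ along the gene, in RefSeq's GRCr8 assembly. Capitals mark matches, on either strand, to CCAAT (bound by NF-Y), GGGCGG (the GC box), CACGTG (an E-box), TCACNCCAC (a sterol response element) or TCACNCGAG (a variant of it, chosen after the sequences were seen). No match of 1 motif overlapped a match of another. Srebf1 has a window at each of its 2 annotated starts.
Fads1 (chr1:216252442-216252741, plus strand): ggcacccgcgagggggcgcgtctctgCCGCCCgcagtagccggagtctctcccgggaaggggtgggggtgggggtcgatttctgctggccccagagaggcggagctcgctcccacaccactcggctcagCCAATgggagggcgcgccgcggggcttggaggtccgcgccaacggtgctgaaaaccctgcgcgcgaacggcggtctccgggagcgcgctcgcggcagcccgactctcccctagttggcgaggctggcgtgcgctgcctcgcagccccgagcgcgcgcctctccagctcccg
Fads2 (chr1:216171984-216172283, minus strand): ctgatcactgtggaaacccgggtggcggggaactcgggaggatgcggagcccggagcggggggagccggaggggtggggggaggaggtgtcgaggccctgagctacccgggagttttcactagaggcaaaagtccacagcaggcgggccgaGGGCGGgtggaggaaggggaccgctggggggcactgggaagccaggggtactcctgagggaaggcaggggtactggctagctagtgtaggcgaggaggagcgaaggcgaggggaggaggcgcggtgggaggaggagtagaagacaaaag
Elovl5 (chr8:87670914-87671213, plus strand): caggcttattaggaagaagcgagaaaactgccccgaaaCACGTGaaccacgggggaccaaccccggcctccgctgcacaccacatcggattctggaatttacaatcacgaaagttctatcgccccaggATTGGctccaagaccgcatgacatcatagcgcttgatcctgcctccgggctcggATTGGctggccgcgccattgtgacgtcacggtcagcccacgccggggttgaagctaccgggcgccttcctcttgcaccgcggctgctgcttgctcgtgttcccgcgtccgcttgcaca
Srebf1, downstream start (chr10:45518961-45519260, minus strand): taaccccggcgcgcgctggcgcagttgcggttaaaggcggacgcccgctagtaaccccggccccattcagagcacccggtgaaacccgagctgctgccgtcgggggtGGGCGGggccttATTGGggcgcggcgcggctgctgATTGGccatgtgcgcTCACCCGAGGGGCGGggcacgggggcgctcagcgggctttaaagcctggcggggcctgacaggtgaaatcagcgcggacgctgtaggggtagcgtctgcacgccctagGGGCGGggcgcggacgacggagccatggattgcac
Srebf1, upstream start (chr10:45529115-45529414, minus strand): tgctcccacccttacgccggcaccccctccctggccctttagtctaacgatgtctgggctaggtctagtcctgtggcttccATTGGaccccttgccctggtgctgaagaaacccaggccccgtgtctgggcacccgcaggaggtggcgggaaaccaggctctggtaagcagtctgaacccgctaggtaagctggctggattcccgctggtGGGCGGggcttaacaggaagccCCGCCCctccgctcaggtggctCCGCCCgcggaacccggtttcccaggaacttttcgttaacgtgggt
Cyp51 (chr4:30991443-30991742, plus strand): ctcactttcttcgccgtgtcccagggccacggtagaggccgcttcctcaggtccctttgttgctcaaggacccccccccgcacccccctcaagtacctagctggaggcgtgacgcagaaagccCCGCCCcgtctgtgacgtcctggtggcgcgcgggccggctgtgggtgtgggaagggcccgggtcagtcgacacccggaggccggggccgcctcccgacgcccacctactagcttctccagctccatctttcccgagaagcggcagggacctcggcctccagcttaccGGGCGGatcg
Fdps (chr2:176804767-176805066, minus strand): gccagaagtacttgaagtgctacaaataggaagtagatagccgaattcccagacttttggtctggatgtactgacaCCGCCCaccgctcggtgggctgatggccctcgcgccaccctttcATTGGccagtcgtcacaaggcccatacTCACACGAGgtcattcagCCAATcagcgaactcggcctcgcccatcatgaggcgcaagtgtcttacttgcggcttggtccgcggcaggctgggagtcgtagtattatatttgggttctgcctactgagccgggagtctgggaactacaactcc

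Promoter windows were found for 30 of the 38 measured genes, 32 windows in all. No window was listed for Acaca, Dgat1, Dgat2, Elovl6, Fasn, Fdft1, Pmvk and Sqle, so nothing is said of their promoters. CCAAT stood in 25 of the 32 windows (78.1%) and in 37.5% of all 33469 windows of the same length. GGGCGG stood in 22 windows (68.8%, against 33.1% of all), and CACGTG in those of Insig1, Elovl5, Sc5d and Scap (12.5%, against 6.42%). TCACNCCAC was in 0 of the 32 windows and in 1.12% of all. With so low a share over all windows, a count of 0 does not set the 32 apart. TCACNCGAG was in 3 windows, those of Fdps, Acss2 and the downstream start of Srebf1 (9.38%, against 0.415%). In the Fdps window it lies between the 2 matches to CCAAT. This motif was chosen after the printed sequences were seen, those of Fdps and Srebf1 among them. Its share is therefore not a test against all windows. A match is a description of the letters and not evidence of binding, and these windows miss any element farther away.

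All values are log2 RMA values, which were put on a common scale across arrays, and differences are D-penicillamine minus vehicle on that scale, so 1 unit is a 2-fold change. Levels are compared between rats for 1 gene, never between genes. Where a gene had several probe sets, the one with the highest mean over all arrays stands for it. Vehicle rat 3 and D-penicillamine rat 4 stood apart from the rest. Their root mean square deviations from their group's mean over all probe sets were 0.162 and 0.195, against 0.0932 to 0.147 in the 10 other rats. Vehicle rat 3 also had the largest 3′ minus 5′ difference, a measure of RNA quality read from the array's Gapdh and beta-actin controls. It was 1.185, against 0.43 to 0.605 in the 11 other rats. Vehicle rat 3 stood alone on this measure, so a fit with the measure as a covariate comes close to leaving that rat out. Such a fit cannot tell RNA quality apart from other traits of vehicle rat 3. The scanner read all 4 vehicle arrays ahead of any treated one, so scan order and treatment cannot be told apart. Whole liver was measured, so fewer cells of a type and less RNA per cell cannot be told apart.

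No lipid synthesis gene differed between the groups past the adjusted threshold, and the genes with the lowest p-values all lay on the lower side after D-penicillamine. In the limma fit, 0 of the 55 probe sets and 0 of all 15866 (0.0%) had a Benjamini-Hochberg adjusted p under 0.05, and the smallest adjusted p among the 55 was 0.614. Before adjustment 5 of the 38 genes had a p under 0.05 in that fit, all lower, where 6.36% of all genes reached that level, 3.63% lower and 2.73% higher. Of the 55 probe sets 6 were lower and 1 higher, against 3.48% and 2.68% of all probe sets (6.16% in all). The 5 genes were Fads1, Srebf1, Elovl5, Fads2 and Nsdhl, and the 7 probe sets were those of these genes with a dimmer probe set each of Sc5d (lower) and Mvk (higher). The groups did not overlap for 1 of the 38 genes, Elovl5, which was lower in all treated rats, as 0.384% of all genes were. Of the 38 genes 25 had a difference below 0, 12 above 0 and 1 at 0, while 51.6% of all genes lay below 0. The median difference was -0.087 over the 38 genes and -0.0037 over all genes. It was -0.085 for the 17 cholesterol genes and the same for the 17 fatty acid genes. Without vehicle rat 3 the median over the cholesterol genes was -0.016 and over the fatty acid genes -0.049. The cholesterol median was 0.014 with arrays weighted by how closely they followed the group fit. It was -0.0001 with the RNA quality measure as a covariate. The count of genes above 0 was 17 and 13 in these fits.

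**Figure D1:**
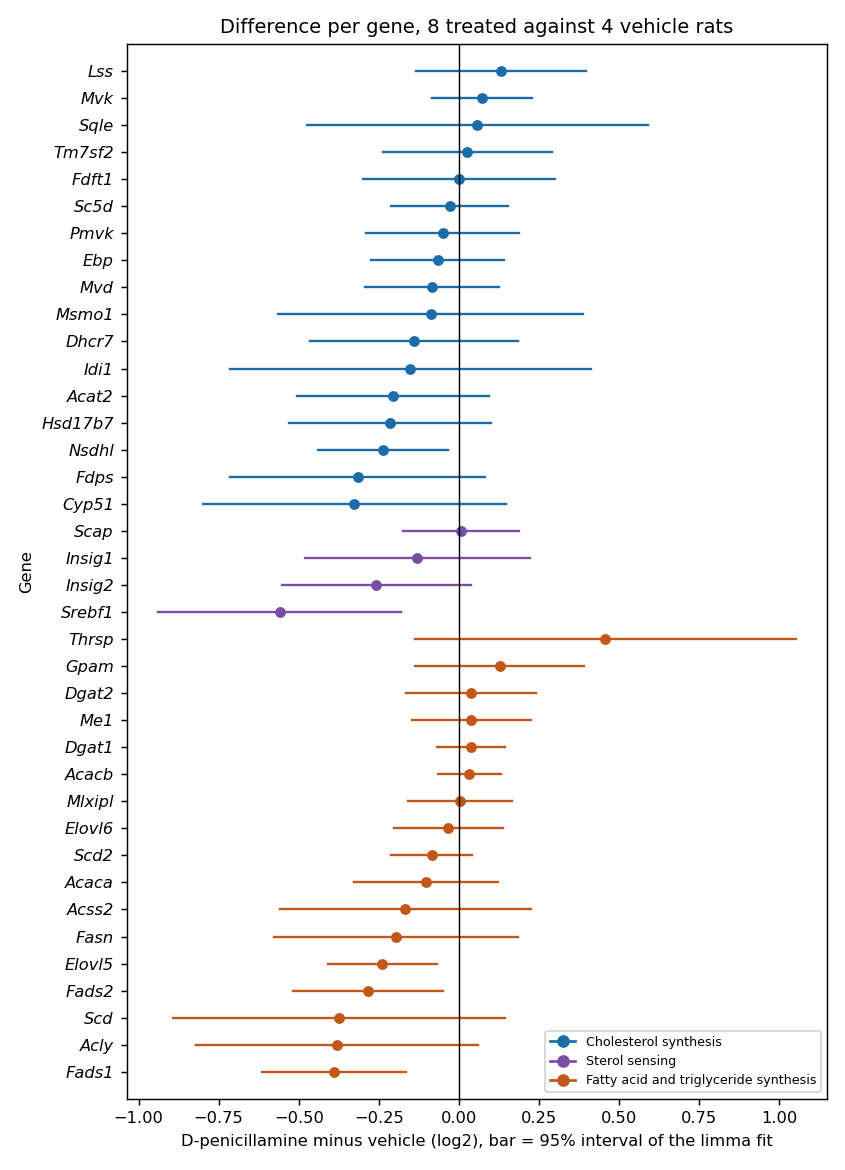
Difference between D-penicillamine (n = 8) and vehicle (n = 4) for each of the 38 genes on the log2 scale, with points for the estimates and bars for the 95% intervals of the limma fit. Srebf1, Fads1, Elovl5, Fads2 and Nsdhl have intervals wholly below 0, and none of these passed adjustment over all probe sets.

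With all rats, the 95% intervals of 37 of the 38 genes left out changes of 2-fold or more, up or down. Those of 29 left out changes of 1.5-fold or more. Each interval is for 1 gene, without adjustment over genes, and the same counts over all genes are not given here. The exception to the 2-fold limit was Thrsp, whose upper bound was 1.05. The lowest bound was -0.94, that of Srebf1. Its difference moved to -0.73 without vehicle rat 3, and the intervals of that fit are not given here.

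Of the genes with the lowest p-values, 3 act in the synthesis of polyunsaturated fatty acids, a grouping made after their values were seen. Fads1 encodes the delta-5 desaturase, Fads2 the delta-6 desaturase, and Elovl5 an elongase that acts between them. Fads1 stood at 10.21, 10.12, 10.44 and 10.17 in the 4 vehicle rats and at 9.59 (lowest), 9.835 (median) and 10.16 (highest) in the 8 treated rats. Of the treated rats 7 lay below every vehicle rat, and treated rat 3 lay within their range. The difference was -0.39 (SE 0.11, 95% interval -0.62 to -0.17, 1.31-fold lower), with an adjusted p of 0.614 in limma. Without vehicle rat 3, the highest of all, it was -0.32.

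Fads2 was 9.84, 9.79, 9.87 and 9.80 in vehicle rats and 9.13 (lowest), 9.565 (median) and 9.90 (highest) in treated rats. The vehicle rats lay close together, 7 treated rats lay below all of them and treated rat 7 lay above all of them. The difference was -0.28 (SE 0.11, adjusted p = 0.747 in limma), and the SD was 0.25 in treated rats against 0.037 in vehicle rats. Elovl5 was 12.15, 12.09, 12.10 and 12.04 in vehicle rats and 11.59 (lowest), 11.915 (median) and 12.01 (highest) in treated rats, so the groups did not overlap. Its difference was -0.24 (SE 0.08, adjusted p = 0.693 in limma). Treated rat 4, which stood apart over all probe sets, was the lowest rat for Fads2 and Elovl5. Without it their differences were -0.225 and -0.20, and that of Fads1 was -0.385. The other probe set of Elovl5 differed by 0.05 (SE 0.20) with all rats. On that probe set vehicle rat 3, which had the large 3′ minus 5′ difference, stood at 8.93 while the other vehicle rats stood at 10.24 to 10.33, and without vehicle rat 3 the difference was -0.29. A fit that took this RNA quality measure as a covariate, which comes close to leaving out that rat, gave -0.31. Elovl6, which lengthens saturated fatty acids, differed by -0.034 (SE 0.08).

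Srebf1, the gene of the SREBP that drives fatty acid synthesis, had the most negative difference of the 38. It was 11.10, 11.23, 10.37 and 10.83 in vehicle rats and 9.82 (lowest), 10.275 (median) and 10.89 (highest) in treated rats. Vehicle rat 3 was the lowest vehicle rat, 6 treated rats lay below it, and treated rats 3 and 8 lay within the vehicle range. The difference was -0.56 (SE 0.18, 95% interval -0.94 to -0.18, 1.47-fold lower, adjusted p = 0.693 in limma). The other probe set of Srebf1 gave -0.37 (SE 0.21). Without vehicle rat 3 the probe sets gave -0.73 and -0.65, with unadjusted p of 7.4e-04 and 8.9e-04 in limma. The adjusted p of the main probe set was then 0.904, above the 0.693 with all rats. Vehicle rat 3 was thus low for Srebf1 and, on 1 probe set, for Elovl5, and it was also the rat with the large 3′ minus 5′ difference. With that difference as a covariate the Srebf1 probe sets gave -0.71 and -0.64.

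The other sterol sensing genes differed less between groups. Insig2, which in rodent liver is the Insig that falls with insulin, was 10.88, 10.93, 10.95 and 10.90 in vehicle rats and 10.16 (lowest), 10.685 (median) and 11.13 (highest) in treated rats. The vehicle rats were nearly equal (SD 0.031), whereas treated rats spread more widely (SD 0.32). Of the treated rats 6 lay below every vehicle rat, and treated rat 6 lay above all of them. The difference of Insig2 was -0.26 (SE 0.14, adjusted p = 0.826 in limma), or -0.19 without treated rat 4. Insig1, itself a target of SREBP, was 9.96, 10.05, 10.55 and 10.20 in vehicle rats and 9.57 (lowest), 10.015 (median) and 10.66 (highest) in treated rats, with a difference of -0.13 (SE 0.16), or -0.010 without vehicle rat 3. Treated rats 3 and 4, the highest of their group for Insig1 at 10.66 and 10.42, were the lowest for Insig2 at 10.29 and 10.16. Scap, the escort of SREBP, differed by 0.0063 (SE 0.08).

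**Figure D2:**
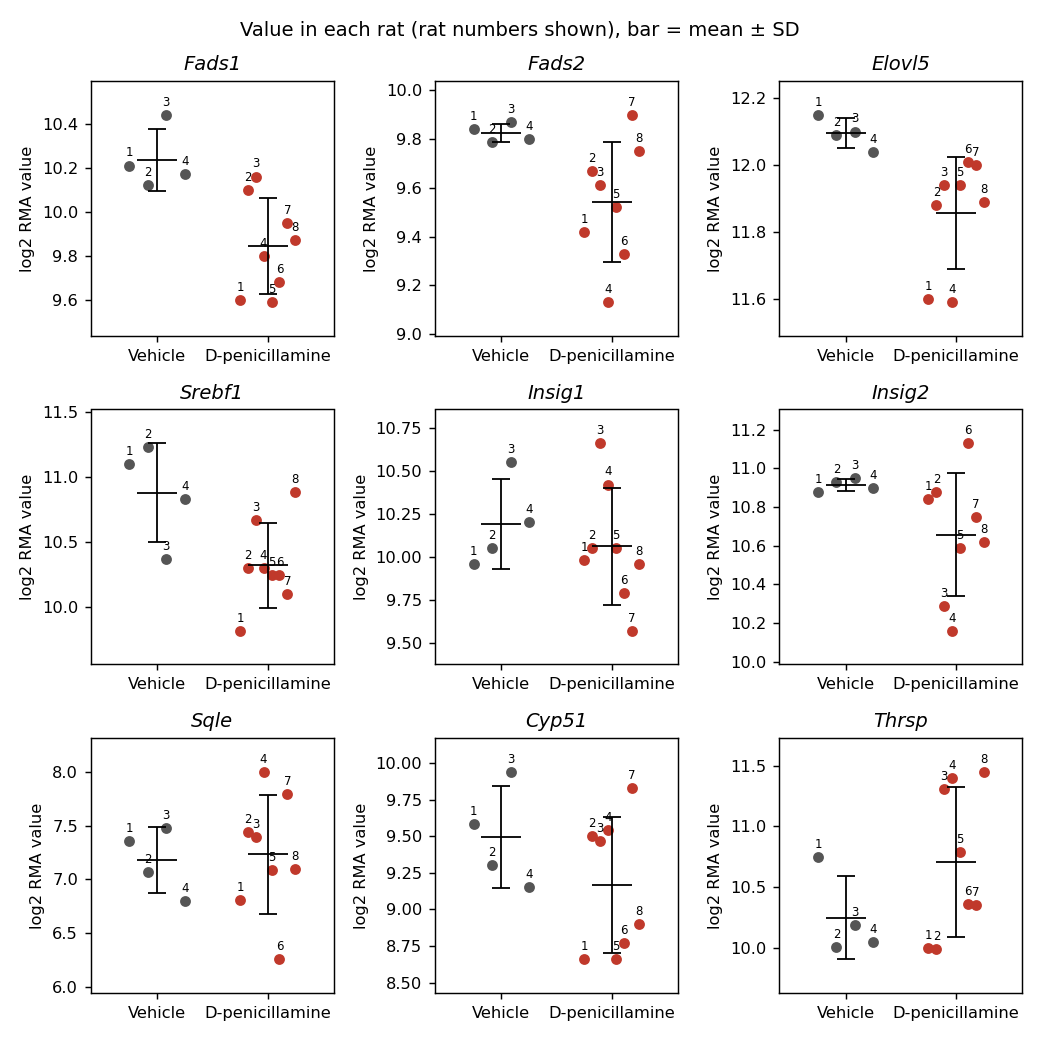
Log2 RMA value of 9 genes in each vehicle rat (grey, n = 4) and D-penicillamine rat (red, n = 8), numbered by rat, with the mean and SD as bars. The groups are apart for Elovl5 and overlap for the other 8 genes. The SD is larger in treated than in vehicle rats for every gene shown but Srebf1, as it is for 67.1% of all genes.

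Among the 17 cholesterol enzymes the spread between rats of 1 group was larger than the difference between groups for most. Their median SD within groups was 0.27 and their median absolute difference 0.089. Over all genes these were 0.105 and 0.049, so the spread was the larger there too. In the mevalonate part, Mvk (mevalonate kinase) differed by 0.07 (SE 0.07), Pmvk (phosphomevalonate kinase) by -0.05 (SE 0.11), Mvd (the decarboxylase) by -0.085 (SE 0.10) and Idi1 (the isomerase) by -0.15 (SE 0.26). Mvk was 7.63, 7.48, 7.66 and 7.44 in vehicle rats and 7.38 (lowest), 7.645 (median) and 7.79 (highest) in treated rats. One of its dimmer probe sets had an unadjusted p of 0.0143 in limma at 0.16 (SE 0.06), the only 1 of the 55 probe sets on the higher side at that level, and it was at 0.12 without vehicle rat 3. Acat2, the thiolase that joins 2 acetyl-CoA, was at -0.21 (SE 0.14). Fdps, which makes farnesyl diphosphate, was at -0.32 (SE 0.19), with 5 of 8 treated rats below every vehicle rat, and Fdft1, which makes squalene, was at 0.00 (SE 0.14). Leaving out vehicle rat 3 gave 0.11 for Mvk, 0.025 for Pmvk, -0.016 for Mvd, -0.030 for Idi1 and 0.13 for Fdft1.

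Sqle, the epoxidase that acts on squalene, was 7.36, 7.07, 7.48 and 6.80 in vehicle rats and 6.26 (lowest), 7.245 (median) and 8.00 (highest) in treated rats. Treated rats held both the lowest and the highest value, and the difference was 0.06 (SE 0.25, 95% interval -0.48 to 0.59). Lss, which closes the sterol ring, was 8.50, 7.99, 7.96 and 7.92 in vehicle rats and 7.93 (lowest), 8.205 (median) and 8.60 (highest) in treated rats, a difference of 0.13 (SE 0.12). The difference without vehicle rat 3 was 0.16 for Sqle and 0.087 for Lss. Cyp51, the demethylase of lanosterol, was 9.58, 9.30, 9.94 and 9.15 in vehicle rats and 8.66 (lowest), 9.185 (median) and 9.83 (highest) in treated rats. Treated rats 1, 5, 6 and 8, at 8.66, 8.66, 8.77 and 8.90, lay below every vehicle rat, while the other treated rats lay from 9.47 to 9.83. The difference was -0.33 (SE 0.22), or -0.18 without vehicle rat 3, and -0.15 (SE 0.16) on the other probe set. The main probe set of Cyp51 is of a class (named _s_at) that can also match other transcripts.

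In the later steps Nsdhl, which removes methyl groups from sterols, had the lowest p among the main probe sets of the pathway. It was 9.74, 9.69, 9.93 and 9.61 in vehicle rats and 9.16 (lowest), 9.50 (median) and 9.72 (highest) in treated rats. All 8 treated rats lay below the vehicle mean and 5 of them below every vehicle rat. The difference was -0.24 (SE 0.10, adjusted p = 0.762 in limma), and -0.175 without vehicle rat 3, with an unadjusted p of 0.105 in limma. Hsd17b7, a sterol reductase, was at -0.22 (SE 0.15), Dhcr7, the last enzyme of the pathway, at -0.14 (SE 0.15), Msmo1, the methyl sterol oxidase, at -0.09 (SE 0.22), Ebp, the isomerase, at -0.07 (SE 0.10) and Tm7sf2, a reductase, at 0.03 (SE 0.12). Leaving out vehicle rat 3 put them at -0.14, -0.055, 0.038, 0.024 and 0.12. Sc5d, the desaturase of these steps, was at -0.029 (SE 0.09) and at -0.068 without vehicle rat 3, but at -0.35 (SE 0.12, unadjusted p = 0.0102 in limma) on its dimmer probe set, where 6 of 8 treated rats lay below every vehicle rat.

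Of the 17 fatty acid and triglyceride genes 10 lay below 0 and 7 above (58.8% below, against 51.6% of all genes). Acly, which makes acetyl-CoA from citrate, was 9.53, 9.08, 9.80 and 9.13 in vehicle rats and 8.30 (lowest), 9.045 (median) and 9.53 (highest) in treated rats. Of the treated rats 4 lay below every vehicle rat and none above, and the difference was -0.38 (SE 0.21, adjusted p = 0.826 in limma), or -0.24 without vehicle rat 3. Acaca, the carboxylase of the first committed step, was 8.44, 8.31, 8.42 and 8.33 in vehicle rats and 7.92 (lowest), 8.235 (median) and 8.74 (highest) in treated rats. Its difference was -0.10 (SE 0.11), with 0.11 (SE 0.11) on its dimmer probe set, so the sign depended on the probe set. Fasn, the synthase, was 9.29, 8.95, 9.09 and 8.73 in vehicle rats and 8.21 (lowest), 8.92 (median) and 9.26 (highest) in treated rats, a difference of -0.20 (SE 0.18), and -0.025 (SE 0.20) on its other probe set.

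Scd, the delta-9 desaturase, was 7.87, 7.44, 7.73 and 7.57 in vehicle rats and 6.70 (lowest), 7.25 (median) and 8.44 (highest) in treated rats. Treated rat 6 was the highest of all 12, 6 treated rats lay below every vehicle rat, and the difference was -0.375 (SE 0.24), or -0.54 without treated rat 6. Its paralogue Scd2 was at -0.085 (SE 0.06), the acetyl-CoA synthetase Acss2 at -0.17 (SE 0.18) and the NADPH-forming malic enzyme Me1 at 0.04 (SE 0.09), with -0.15 (SE 0.16) on its dimmer probe set. The main probe sets gave, without vehicle rat 3, -0.15 for Scd2, -0.039 for Acss2 and -0.027 for Me1. Acacb, the carboxylase isoform of mitochondria, was 4.97, 4.87, 4.85 and 4.93 in vehicle rats and 4.86 (lowest), 4.92 (median) and 5.04 (highest) in treated rats, a difference of 0.0325 (SE 0.05), or 0.014 without vehicle rat 3. Mlxipl, the glucose-responsive factor, differed by 0.0037 (SE 0.08).

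Thrsp, a lipogenic nuclear protein induced by feeding and thyroid hormone, had the largest positive difference. It was 10.75, 10.01, 10.19 and 10.05 in vehicle rats and 9.99 (lowest), 10.575 (median) and 11.45 (highest) in treated rats. Treated rats 3, 4, 5 and 8, at 11.31, 11.40, 10.79 and 11.45, lay above every vehicle rat. Treated rats 1 and 2, at 10.00 and 9.99, lay just below all of them, and on the other probe sets no treated rat did. The difference was 0.46 (SE 0.28, 95% interval -0.14 to 1.05, adjusted p = 0.832 in limma), and the other probe sets gave 0.465 and 0.53. Of the enzymes that assemble triglyceride, Gpam was 6.87, 6.84, 6.20 and 6.78 in vehicle rats and 6.61 (lowest), 6.785 (median) and 7.16 (highest) in treated rats. Its difference of 0.13 (SE 0.12) was -0.03 without vehicle rat 3, the lowest of the 12. Dgat1, which forms triglyceride from diglyceride, was 8.06, 8.24, 8.19 and 8.21 in vehicle rats and 8.10 (lowest), 8.205 (median) and 8.32 (highest) in treated rats, and it differed by 0.04 (SE 0.05). Dgat2, its counterpart of another protein family, also differed by 0.04 (SE 0.09).

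Most cholesterol genes were high in some rats and low in others, in both groups. Treated rat 7 lay above the mean of the 12 rats for 17 of 17 cholesterol genes and treated rat 6 for 0 of 17, while 56.2% and 45.5% of all genes lay above their mean in these rats. Treated rat 3 was above the mean for 16 of the 17, treated rat 2 for 14 and treated rat 4 for 13. Treated rat 5 was above it for 1, treated rat 1 for 2 and treated rat 8 for 5. Vehicle rats 1 and 3 were each above the mean for 15 of the 17, vehicle rat 2 for 6 and vehicle rat 4 for 4. Treated rat 6 was the lowest of the 12 rats for 12 of the 17 cholesterol genes, against 1085 of all 10411 genes. The highest value was in vehicle rat 3 for 7 of the 17, in treated rat 7 for 5 and in treated rat 4 for 4. These rats also held the highest value for many of all 10411 genes, vehicle rat 3 for 1591, treated rat 4 for 1538 and treated rat 7 for 1356. The median deviation over the 17 genes ran from -0.455 in treated rat 6 to 0.34 in treated rat 7, and in vehicle rats from -0.16 to 0.31. Genes of 1 array share its RNA and its normalization, and the part of these was not tested.

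**Figure D3:**
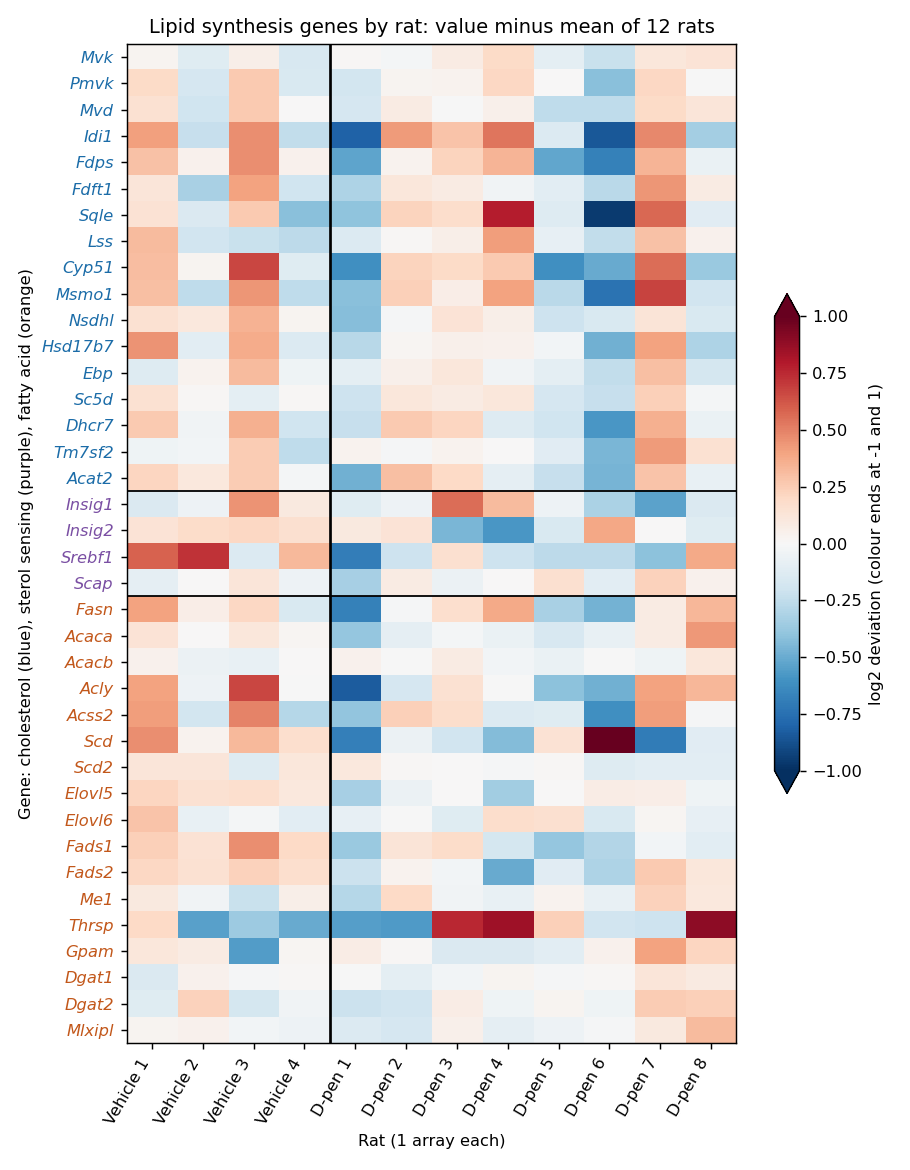
Deviation of each of the 38 genes (rows, grouped by role) in each of the 12 rats (columns) from that gene's mean over the 12 rats, on the log2 scale. Most cholesterol genes are low in treated rats 1, 5 and 6 and high in vehicle rats 1 and 3 and treated rat 7, and Thrsp and Scd do not follow that order.

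For the fatty acid genes the count above the mean was 15 of 17 in vehicle rat 1 and 8 to 11 in the other vehicle rats, and in treated rats it ran from 3 in rat 1 to 12 in rat 7. Treated rat 1 was the lowest of all 12 rats for 5 of the 17, and for 1308 of all 10411 genes. The median SD within groups, pooled over both, was 0.27 for the cholesterol genes and 0.20 for the fatty acid genes, against 0.105 over all genes, given as a description with no test. The SD was larger in treated than in vehicle rats for 25 of the 38 genes (65.8%), close to the 67.1% over all genes.

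Over the 8 treated rats, 9 pairs of genes were correlated, with exact permutation p-values adjusted over the 9. Sqle and Cyp51 had r = 0.82 (exact permutation p = 0.00853, adjusted p = 0.0384). Spearman's rho was 0.90 for that pair (exact permutation p = 0.00516, adjusted p = 0.0464). Without treated rats 4 and 6, the farthest from Sqle's median, r was 0.95 over 6 rats (exact permutation p = 0.00278, adjusted p = 0.0250). Values of Cyp51 in treated rats fell into a lower and a higher set of 4. The part of that split in these coefficients was not tested. Fasn and Acly had r = 0.89 (exact permutation p = 0.00367, adjusted p = 0.0330) and Spearman's rho = 0.79 (exact permutation p = 0.0279, adjusted p = 0.0807). Without treated rats 1 and 6, the farthest from the median of Fasn, r was 0.69 over 6 rats (exact permutation p = 0.118, adjusted p = 0.419), so the relation passed adjustment with those 2 rats and not without them. The pairs of Fasn with Sqle, Acaca, Thrsp and Srebf1 had r of 0.745, 0.73, 0.72 and 0.70 and rho of 0.76, 0.76, 0.71 and 0.735. Their exact permutation p-values lay between 0.0280 and 0.0532 for r and between 0.0368 and 0.0576 for rho, and none passed adjustment (0.0747 to 0.0864). Without treated rats 1 and 6 these r lay between 0.45 and 0.58. Sqle with Insig1 had r = 0.31 and rho = 0.30, Srebf1 with Insig2 r = -0.39 and rho = -0.42, and Scd with Fads2 r = -0.27 and rho = -0.24, with adjusted exact permutation p-values from 0.384 to 0.582.

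**Figure D4:**
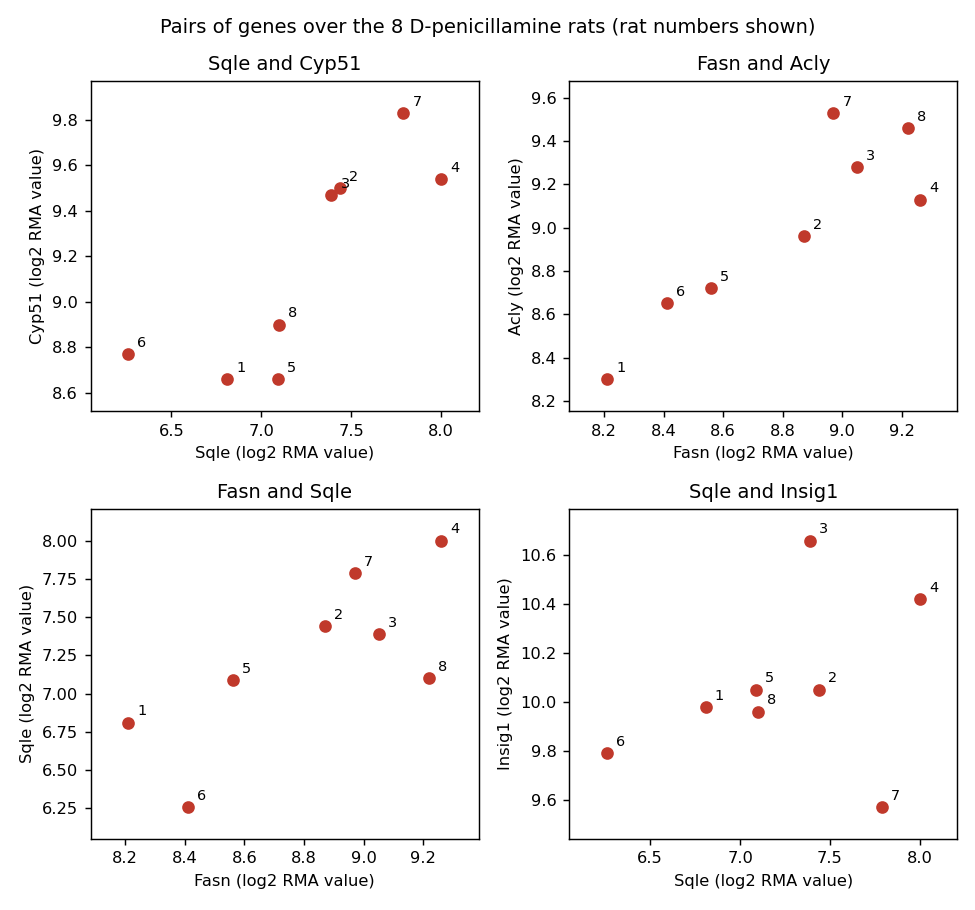
Log2 RMA values of pairs of genes in the 8 D-penicillamine rats, 1 point per rat, numbered. Fasn and Acly are lowest in rats 1 and 6, Cyp51 has a gap between 8.90 and 9.47, and rat 7 is high for Sqle and lowest for Insig1.

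Other genes of lipid metabolism, from lists outside the 38, are given by their counts, beside 6.36% of all genes with an unadjusted p under 0.05 (3.63% lower, 2.73% higher) and 51.6% below 0. None had an adjusted p under 0.05 in limma. Of 4 genes that pass electrons to sterol and fatty acid enzymes, the P450 reductase gene Por was higher at an unadjusted p under 0.05 (0.55, SE 0.13), while the cytochrome b5 genes Cyb5b and Cyb5a and the reductase gene Cyb5r3 lay at -0.115, -0.0325 and -0.05. The P450 enzyme Cyp51 takes its electrons from the Por protein. Of 7 genes that supply citrate and NADPH 6 lay below 0, with a median of -0.07, and 2 had an unadjusted p under 0.05. These were Pgd and Tkt of the pentose phosphate pathway, at -0.21 (SE 0.09) and -0.24 (SE 0.10), or -0.12 and -0.145 (unadjusted p of 0.178 and 0.170) without vehicle rat 3. The citrate carrier Slc25a1 was at -0.13 (SE 0.08).

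The LXR gene Nr1h3, whose protein activates Srebf1 transcription, was at -0.21 (SE 0.07, unadjusted p = 0.0134 in limma), or -0.15 with an unadjusted p of 0.0705 without vehicle rat 3. It was the 1 gene of 6 in its list at that level, and the median of that list was 0.076. Of 12 genes for SREBP processing and partner factors 0 had an unadjusted p under 0.05 in limma, with a median of 0.0088, and neither did any of 4 glycolysis genes (median -0.028), 7 glycerolipid and lipid droplet genes (-0.0425) and 3 isoprenoid genes (-0.0037). Of 11 other fatty acid enzymes 2 were lower and 1 higher at that level. The lower ones were Acsl3 at -0.19 (SE 0.07), an acyl-CoA synthetase, and Hsd17b12 at -0.18 (SE 0.08), a reductase of fatty acid elongation. The higher one was Mid1ip1 at 0.41 (SE 0.18), which is related to Thrsp and activates Acaca. Without vehicle rat 3 Acsl3 was at -0.16, Hsd17b12 at -0.11 and Mid1ip1 at 0.39, with unadjusted p of 0.0596, 0.185 and 0.0802 in limma. Of 6 genes of sterol esters and transport 1, the ester hydrolase gene Nceh1, was lower at that level, at -0.24 (SE 0.11). Leaving out vehicle rat 3 put Nceh1 at -0.21, with an unadjusted p of 0.114 in limma.

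Markers of hepatocytes had a mean over 7 markers (of 8 listed) between 13.81 and 13.88 in vehicle and 13.81 and 13.88 in treated rats, and differences from -0.07 to 0.07. Adipocyte markers (4 measured of 6) averaged 5.29 to 5.36 in vehicle and 5.26 to 5.465 in treated rats. None of the markers of hepatocytes, adipocytes, pancreas, intestine or erythroid cells had an unadjusted p under 0.05 in limma. Kupffer cell (liver macrophage) markers averaged 8.44 to 8.70 and 8.54 to 8.76 over 5 of 7 markers, all 5 with a positive difference (2 with an unadjusted p under 0.05). Those of stellate cells averaged 5.955 to 6.06 and 5.835 to 6.135 over 6 of 6 (3 lower at that level). Of 3 of 4 cholangiocyte markers 1 was higher at that level, which 2.73% of all genes reached on the higher side and 3.63% on the lower. The part of these cells in the values above was not tested.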

How the data were processed

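Per the labels' protocols, total RNA of frozen liver was isolated per rat with a column kit and hybridised to 1 array per rat. The deposited table holds log2 values for 15923 probe sets, made by the authors with RMA, per the submitters' processing notes. RMA includes background correction, quantile normalization across arrays and a summary per probe set. The sources used here give neither its version nor a filter. RMA hides a shift common to most transcripts and gives no detection call, so dim probe sets stayed in. Array medians lay between 6.30 and 6.35, and with 12 arrays their number sets the precision.

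The 57 control probe sets were left out. Names came from the annotation of the platform, with symbols updated through gene identifiers to GRCr8. Of 15866 probe sets, 12783 had 1 symbol, 312 several and 2771 none. Groups and rat numbers came from the titles. The groups were compared with lmFit and eBayes of limma 3.58.1 (R 4.3.3), two-sided, with Benjamini-Hochberg adjustment over all 15866 probe sets. The fit was tested on simulated data.

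The gene lists and the genes given rat by rat were chosen with earlier results of these data known. Values per rat are given for up to 6 genes per direction with the smallest p and for 9 fixed genes, and other lists by counts with up to 3 genes of smallest p. Treated rats singled out in the text, the dimmer probe sets, and Cyb5b, Cyb5a and Cyb5r3 were named after their values were seen. Alternatives were array weights, other scalings, an RNA quality covariate, averaging all probe sets of a gene, brighter probe sets, a replicate block and leaving out rats.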

Additional observations from a re-analysis of the deposited data

Results flagged for a closer look

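In 3 of 76 combinations of gene and group, 1 rat lay far from the others of its group, where chance alone flags about 1 in 20 of such groups. For Lss, vehicle rat 1 was at 8.50 while the other vehicle rats lay between 7.92 and 7.99. For Scd2, vehicle rat 3 was at 5.73 against 5.97 to 5.98, and for Gpam it was at 6.20 against 6.78 to 6.87. Vehicle rat 3 also had the largest 3′ minus 5′ difference of the control probe sets, 1.185. With that difference as a covariate the group difference of Gpam was -0.059 (0.13 without it) and that of Scd2 -0.15 (-0.085 without it). This covariate fit comes close to leaving out vehicle rat 3.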

How the results depend on the processing

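No setting brought a lipid synthesis gene past an adjusted p of 0.05 in limma, and the smallest adjusted p of any of them was 0.224. With array weights 2 probe sets of all those tested passed, and leaving out each rat gave 0 to 1 (1 without D-penicillamine rat 1), none of them in these genes. Over 711 alternative values of the 37 genes with a difference other than 0, 655 kept their direction, 55 turned it and 1 was at 0 (Dgat1 with the replicate block), and 19 genes kept it in all settings run, among them Fads1, Fads2, Elovl5, Srebf1 and Nsdhl. The settings share most of their arrays, so these values are not independent and much of their agreement is built in. The median over the 38 genes lay between -0.15 and -0.035 on leaving out each rat, and at -0.011 with array weights. Fdft1, at 0 with all rats, lay above 0 in 11 and below 0 in 8 of its 20 alternatives. With array weights the cholesterol median was 0.014, the fatty acid median -0.014 and the count of genes above 0 was 17 instead of 12, and with the 3′ minus 5′ covariate the cholesterol median was -0.0001. The cause of the changes of direction was not tested.

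With array weights the direction turned for Pmvk (0.028), Idi1 (0.056), Msmo1 (0.048), Dhcr7 (0.014), Acss2 (0.046) and Dgat2 (-0.0086). With the 3′ minus 5′ covariate it turned for Pmvk (0.0225), Msmo1 (0.039), Ebp (0.025), Insig1 (0.035), Me1 (-0.035), Gpam (-0.059), Dgat2 (-0.0056) and Mlxipl (-0.010). With the replicate block over rats 1 to 4, which leaves out treated rats 5 to 8, it turned for Idi1 (0.0075), Msmo1 (0.0125), Sc5d (0.0050), Insig1 (0.0875), Scap (-0.0725), Me1 (-0.0225), Dgat2 (-0.0675) and Mlxipl (-0.085), and 0 probe sets passed. The same-numbered rats share only a number, with correlations of their deviations from the group means between -0.15 and 0.21. Without vehicle rat 3 and treated rat 4 together it turned for Ebp (0.026), Me1 (-0.015), Gpam (-0.0029) and Dgat2 (-0.0024). With all probe sets of a gene averaged it turned for Acaca (0.0050) and Me1 (-0.0575).

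On leaving out each rat, differences ran through 0 for Fdft1 (-0.11 to 0.13), Pmvk (-0.12 to 0.025), Sqle (-0.068 to 0.20), Msmo1 (-0.19 to 0.038), Ebp (-0.12 to 0.024), Sc5d (-0.068 to 0.015), Tm7sf2 (-0.053 to 0.12), Scap (-0.026 to 0.054), Elovl6 (-0.075 to 0.055), Me1 (-0.027 to 0.081), Gpam (-0.030 to 0.19), Dgat2 (-0.010 to 0.12) and Mlxipl (-0.042 to 0.028). Without the 2 rats farthest from the median of the first gene, r was 0.95 for Sqle with Cyp51 and 0.69 for Fasn with Acly. It was -0.21 for Sqle with Insig1 and 0.55 for Scd with Fads2.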
